A study of Mus musculus with 110 samples.

Results

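Livers of methionine-restricted mice at 22 °C (MetR_RT) were compared with livers of methionine-restricted mice moved to 4 °C for 24 h (MetR_CE), so that the effect of cold exposure (CE) was read on top of a diet to which the liver had already responded. The comparison held 14 of the 110 libraries of the series, 7 per group, chosen by their titles, and 22143 of 56884 genes, which had at least 10 counts in total over the liver libraries. All mice were male wild-type C57BL/6N from Taconic, single-housed, and 16 weeks old at the end. The MetR diet held 0.12% methionine and no cysteine and was eaten for 7 days at 22 °C, and MetR_CE mice then spent an additional day in the cold on the same diet, so that 24 h of cold and a longer time on the diet cannot be told apart. The control diet, used below for comparison (Ctrl_RT and Ctrl_CE, 7 libraries each), held 0.86% methionine per the labels and also no cysteine. All mice were sacrificed in the morning, during the light phase, and the order of the groups within that time was not given. Total counts ran from 6987895 to 33444374 in MetR_RT and from 12113437 to 17950183 in MetR_CE. Each library correlated with the mean of its own group at 0.9875 or more in MetR_RT and 0.9904 or more in MetR_CE. Summed hepatocyte markers were high in both groups (71170 to 95690 and 66950 to 75300 CPM).

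The liver answers cold by changing which fuels it handles. Fatty acids released from adipose tissue are oxidised or exported as ketone bodies and lipoproteins, and glucose is made from amino acids and lactate. A methionine-poor, cysteine-free diet activates the integrated stress response in hepatocytes, in which ATF4 induces enzymes of serine and one-carbon synthesis and hormones such as FGF21 and GDF15. It also engages NRF2, the factor that induces glutathione synthesis and conjugation. The transcription factors CLOCK and BMAL1 (encoded by Arntl) drive the circadian genes of the liver through a short motif, the E-box, with the letters CACGTG.

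The promoters of Ciart and Per1, both repressors within the circadian clock and both higher in MetR_CE than in MetR_RT, are shown because they carry this motif. They span 250 bases before to 50 after the start of the gene in RefSeq (GRCm38.p6), 5′ to 3′ on the strand of the gene, with the motif in capitals. That of Ciart lies on the minus strand at chr3:95882179-95882478 with 3 matches, and that of Per1 on the plus strand at chr11:69098699-69098998 with 1 match.
Ciart: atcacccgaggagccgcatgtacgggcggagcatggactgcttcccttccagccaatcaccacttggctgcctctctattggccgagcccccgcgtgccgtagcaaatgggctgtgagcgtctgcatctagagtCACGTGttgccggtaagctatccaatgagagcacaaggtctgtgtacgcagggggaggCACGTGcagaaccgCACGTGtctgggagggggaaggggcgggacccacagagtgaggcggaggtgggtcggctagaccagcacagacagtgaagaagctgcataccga
Per1: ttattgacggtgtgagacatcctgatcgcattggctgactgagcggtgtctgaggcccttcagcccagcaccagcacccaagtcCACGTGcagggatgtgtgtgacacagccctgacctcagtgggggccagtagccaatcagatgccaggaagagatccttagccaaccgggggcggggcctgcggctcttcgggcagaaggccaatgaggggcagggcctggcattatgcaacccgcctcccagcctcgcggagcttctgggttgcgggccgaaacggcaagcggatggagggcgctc
The E-box reads the same on both strands and stood in 2349 of 32851 RefSeq promoter windows of this length (7.15%). Of 20 clock genes tested, 17 had such a window and 5 had a match (Ciart, Per1, Tef, Cry1 and Bhlhe41), against 8.093% of all 27025 genes with a window, of which only Ciart and Per1 were differentially expressed here. Windows were searched in the same way for the antioxidant response element (TGACNNNGC), which matched in 8 of 20 genes of NRF2 and glutathione conjugation against 13.99% of all genes. None of these 8 was differentially expressed here. The sterol regulatory element (TCACNCCAC) matched in 1 of 17 cholesterol genes, against 1.436% of all genes. This gene, Hmgcs1, was not differentially expressed here. The cAMP response element (TGACGTCA) matched in 0 of 21 glucose genes, against 2.031% of all genes. Both strands were searched, and N stands for any base. A match describes letters, not binding.

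Cold changed 1148 genes in the liver of methionine-restricted mice (5.18% of those tested). Of these differentially expressed genes (DEGs, which changed at least 1.5-fold with an adjusted p under 0.05 in edgeR's quasi-likelihood test), 608 were upregulated (2.75%) and 540 downregulated (2.44%). Their median absolute log2 fold change was 0.90, and 3987 genes (18.0%) had an adjusted p under 0.05 at any fold. The groups did not overlap for 430 of the DEGs (37.5%), against 1624 of all genes (7.33%). The median log2 fold change over all genes was -0.035. With edgeR's glmTreat, which tests against the threshold itself, 42 genes were upregulated and 26 downregulated. Levels are given as normalised CPM, counts scaled to a common library size, with the lowest, median and highest of 7 libraries.

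**Figure D1:**
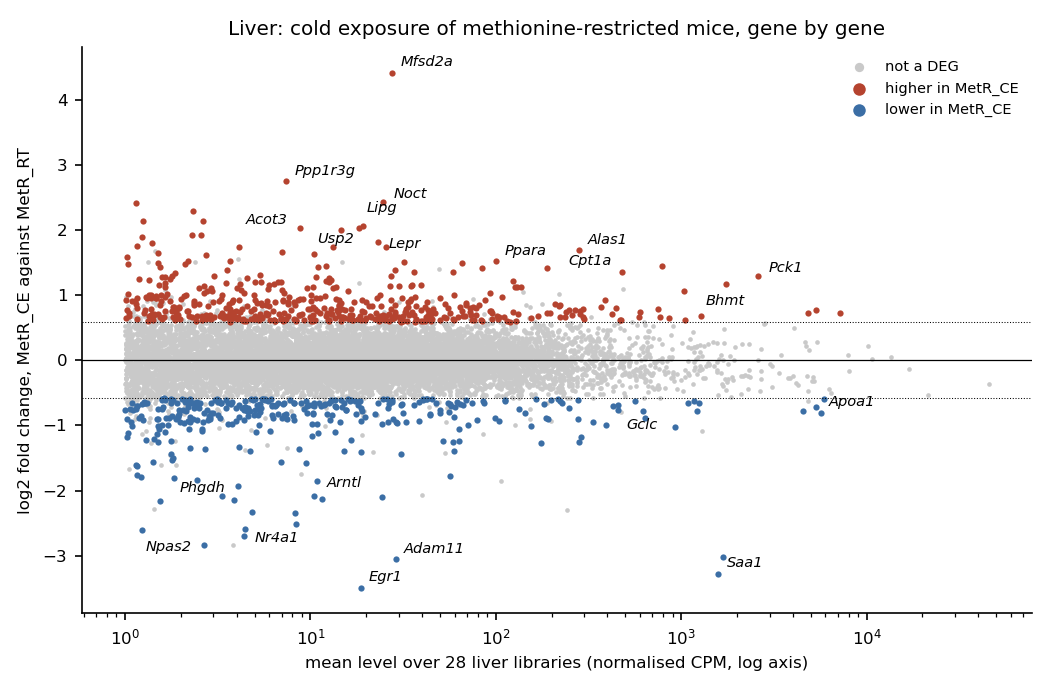
Log2 fold change of MetR_CE against MetR_RT for the 12514 genes with a mean of at least 1 CPM, plotted against their mean level on a log axis, with DEGs in colour and dotted lines at the fold-change threshold. Mfsd2a stands at 4.41, above all other genes plotted, and Egr1 at -3.49 below them.

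Mfsd2a, which encodes a transporter of lysophosphatidylcholine, was the gene with the largest increase among those of at least 1 CPM. It lies at chr4:122946850-122961188 on the minus strand (GRCm38). It was at 0.348, 1.19 and 4.27 CPM in MetR_RT and at 12.9, 52.0 and 75.4 CPM in MetR_CE. The groups did not overlap, and the log2 fold change was 4.41 ± 0.48 (SE, adjusted p = 2.69e-07). Among its neighbours in size, Noct, a rhythmic phosphatase of the liver, went from 3.16, 5.21 and 19.8 to 24.5, 43.4 and 68.8 CPM (2.43 ± 0.35, adjusted p = 1.2e-05). Ctcfl and the overlapping antisense gene Ctcflos had log2 fold changes of 1.92 and 1.99, but reads of the pair cannot be told apart without strand.

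Adam11, at chr11:102761439-102780262, had one of the largest decreases. This gene for a catalytically inactive metalloprotease was at 14.2, 50.9 and 64.1 CPM in MetR_RT and at 3.58, 5.54 and 6.62 CPM in MetR_CE, with no overlap (log2 fold change -3.05 ± 0.30, adjusted p = 5.46e-08). Adrb3, the β3-adrenergic receptor gene best known from adipocytes, was at 5.88, 8.16 and 11.8 CPM in MetR_RT and at 2.00, 2.83 and 4.47 in MetR_CE (-1.56 ± 0.18, adjusted p = 3.88e-07). Arf5, a small GTPase of the Golgi, had the smallest p of the downregulated genes at a small fold (-0.66 ± 0.06, adjusted p = 3.02e-08).

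Of 32 genes of fatty acid oxidation and ketogenesis tested, 11 were upregulated and 0 downregulated, and the median log2 fold change was 0.50 against -0.035 over all genes. At any fold, 18 of the 32 were higher with an adjusted p under 0.05, against 8.42% of all genes. Cpt1a, the gatekeeper enzyme of mitochondrial fatty acid uptake (chr19:3322334-3385733), was at 169, 327 and 373 CPM in MetR_RT and at 637, 740 and 872 CPM in MetR_CE. Every MetR_CE library lay above every MetR_RT library (log2 fold change 1.36 ± 0.13, adjusted p = 5.46e-08). Ppara, the nuclear receptor that drives this programme, went from 31.2, 58.8 and 71.6 to 133, 145 and 188 CPM, again without overlap (1.52 ± 0.17, adjusted p = 4.19e-07). The acyl-CoA thioesterase genes Acot3, Acot4 and Acot2 had log2 fold changes of 2.03, 0.80 and 0.91, and these close relatives may share reads. The other upregulated members were the carnitine transporter gene Slc22a5 (0.92), the fatty acid uptake gene Cd36 (0.77), Vnn1 (0.96), the ω-hydroxylase gene Cyp4a31 (1.501), Crat (0.86) and Acsl1 (0.61). Of these, Acsl1 fell under the fold threshold in 3 of 14 fits that left out 1 library, at 0.56 to 0.57, without MetR_RT replicate 3, MetR_RT replicate 4 or MetR_CE replicate 1.

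Of 28 genes that handle stored and circulating lipid, 6 were upregulated (21.4%) and 2 downregulated (7.14%). Over all genes these shares were 2.75% and 2.44%, against which the counts of the lists below are also to be read. The upregulated genes encode the lipases MGLL (Mgll, 0.76 ± 0.12, adjusted p = 3.71e-05) and endothelial lipase (Lipg, 2.02 ± 0.45, adjusted p = 0.00147), the lipase inhibitor ANGPTL4 (Angptl4, 1.03 ± 0.21, adjusted p = 0.000765), the droplet protein CIDEC (Cidec, 0.68) and the apolipoproteins APOA5 (Apoa5, 0.68) and APOA4 (Apoa4, 0.85). Apoa1, the main protein of high-density lipoprotein, was at 5420, 6666 and 7688 CPM in MetR_RT and at 3383, 3668 and 4128 CPM in MetR_CE. The groups did not overlap, and the log2 fold change was -0.81 ± 0.12 (adjusted p = 1.76e-05). Lpl, which had a log2 fold change of -0.63, fell under the fold threshold in 5 of 14 fits without 1 library (-0.58 to -0.53): MetR_RT replicate 1 or 5, or MetR_CE replicate 2, 5 or 7.

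Of 25 genes of cholesterol synthesis and uptake, 7 were upregulated and 0 downregulated, the median log2 fold change was 0.63, and 23 of 25 values were positive. Hsd17b7, a synthesis enzyme, was at 30.6, 42.8 and 71.4 CPM in MetR_RT and at 74.8, 125 and 205 CPM in MetR_CE, without overlap (1.42 ± 0.24, adjusted p = 8.65e-05). The calls of Msmo1 (1.22), a synthesis enzyme, and Stard4 (0.60), a sterol carrier, were lost in 7 and 5 of 14 fits that left out 1 library, with values of 1.004 to 1.17 and 0.52 to 0.57. The libraries concerned were MetR_RT replicates 1, 4 and 7 and MetR_CE replicates 3 and 5 for both genes, and MetR_RT replicate 5 and MetR_CE replicate 2 for Msmo1. Idi1 (1.43) lost its call without MetR_CE replicate 5 (1.18, adjusted p = 0.0556).

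Of 19 fatty acid synthesis genes, 3 were upregulated and 1 downregulated. The upregulated genes, Fads2, Fads1 and Elovl5, desaturate and elongate polyunsaturated fatty acids. Fads2 went from 243, 407 and 665 to 1071, 1204 and 1428 CPM, without overlap (1.45 ± 0.20, adjusted p = 5.46e-06), and Fads1 had a log2 fold change of 0.75 ± 0.17 (adjusted p = 0.00226). Elovl5 (0.72) passed in only 4 of 14 fits without 1 library. Mlxipl, which encodes the carbohydrate-sensing factor ChREBP, was the downregulated member, with 620, 729 and 776 CPM in MetR_RT and 424, 471 and 499 CPM in MetR_CE (-0.62 ± 0.07, adjusted p = 8.78e-07).

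**Figure D2:**
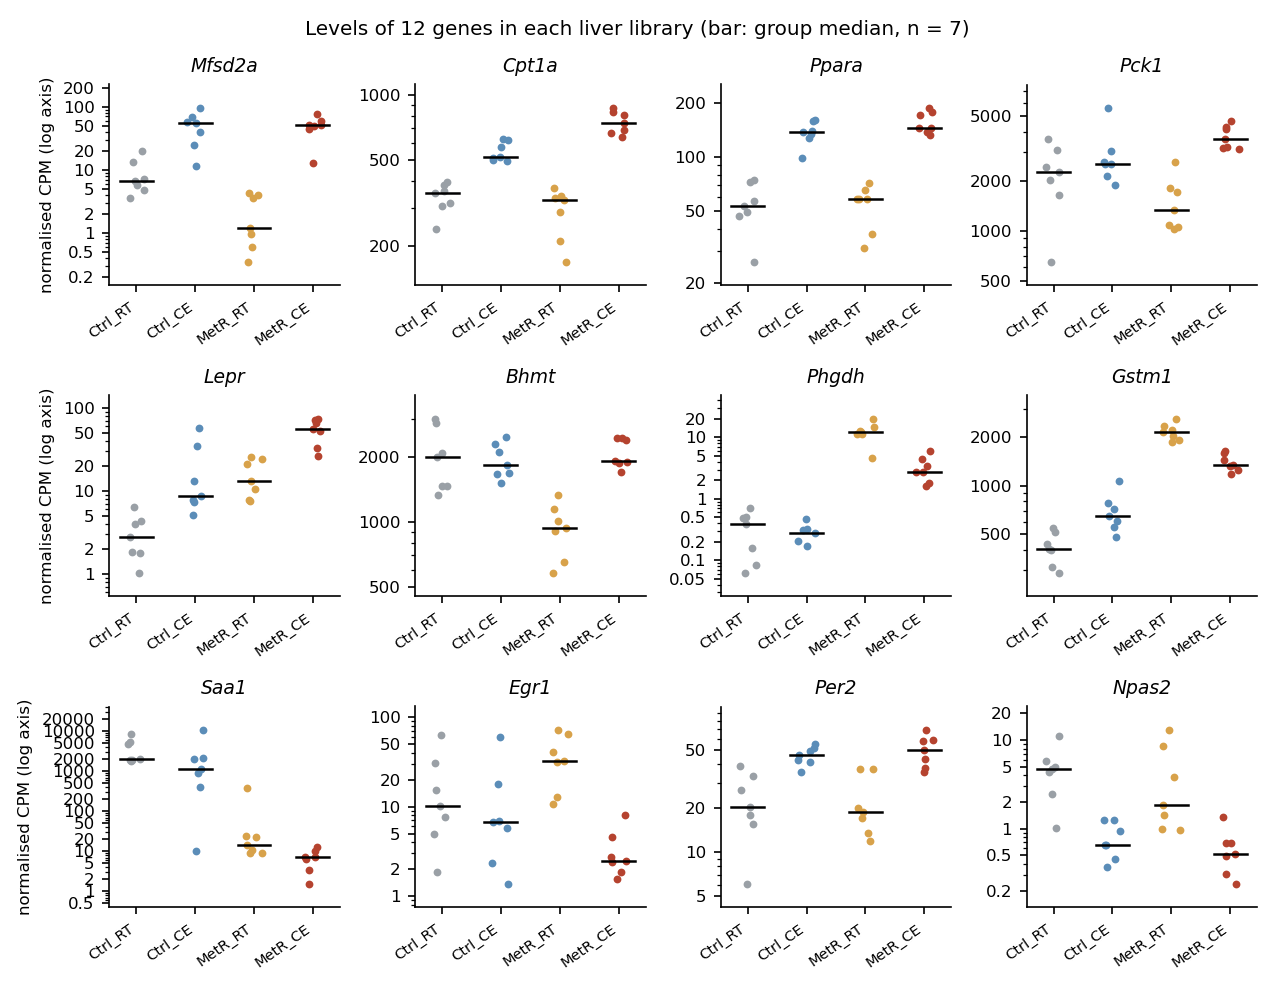
Normalised CPM on log axes of 12 genes in each of the 28 liver libraries, with a bar at each group's median of 7. Cpt1a, Ppara, Pck1, Lepr, Bhmt and Mfsd2a lie higher in every MetR_CE library than in any MetR_RT library, Gstm1 and Egr1 lie lower in every MetR_CE library, and the other 4 genes overlap.

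In glucose handling, 5 of 25 genes were upregulated and 1 downregulated. Pck1, the cytosolic enzyme that commits carbon to gluconeogenesis, was at 1026, 1336 and 2619 CPM in MetR_RT and at 3117, 3590 and 4631 CPM in MetR_CE. Its groups did not overlap (log2 fold change 1.29 ± 0.26, adjusted p = 0.000646). Ppargc1a, a coactivator of gluconeogenic and oxidative genes, had a log2 fold change of 0.78 ± 0.19 (adjusted p = 0.00363). Glycogen genes moved in both directions: the glycogen synthase gene Gys2 (0.73 ± 0.12, adjusted p = 3.81e-05) and the glycogen-targeting subunit gene Ppp1r3g (2.74 ± 0.72, adjusted p = 0.0064) were upregulated, and the related subunit gene Ppp1r3c was downregulated (-1.24 ± 0.33, adjusted p = 0.00805). Ppp1r3g spread widely, from 0.967 to 24.2 CPM in MetR_CE and from 0.573 to 4.76 in MetR_RT, and these ranges overlapped. Pfkfb3, a regulator of glycolysis, had a log2 fold change of 0.90.

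Of 30 genes of amino acid catabolism and the urea cycle, 4 were upregulated and 0 downregulated. Oat, ornithine aminotransferase, was at 527, 673 and 861 CPM in MetR_RT and at 1018, 1073 and 1290 CPM in MetR_CE (0.66 ± 0.11, adjusted p = 6.24e-05). The aspartate aminotransferase gene Got1 (0.82), the mitochondrial glutamate carrier gene Slc25a22 (0.79) and the mitochondrial ornithine carrier gene Slc25a15 (0.62) likewise did not overlap between the groups. Without MetR_RT replicate 1, Slc25a15 fell under the fold threshold (0.56).

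The methionine cycle is the pathway that the diet limits, and 3 of 30 of its genes were upregulated and 1 downregulated. The latter is 3.33%, near the 2.44% of all genes. Bhmt, which remethylates homocysteine to methionine (chr13:93616675-93637961), was at 581, 935 and 1328 CPM in MetR_RT and at 1713, 1921 and 2464 CPM in MetR_CE. The log2 fold change was 1.16 ± 0.18 (adjusted p = 2.65e-05), and the MetR_CE levels lay near those of both control-diet groups, whose medians were 2009 CPM in Ctrl_RT and 1847 CPM in Ctrl_CE. Mat1a, which makes S-adenosylmethionine in hepatocytes, went from 3869, 4904 and 5149 to 7386, 7756 and 8894 CPM without overlap (0.78 ± 0.16, adjusted p = 0.000736). Nnmt, which consumes S-adenosylmethionine, had a log2 fold change of 0.73 ± 0.22 (adjusted p = 0.0193).

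Gclc, the catalytic subunit of the enzyme that limits glutathione synthesis, was the downregulated member. It was at 607, 701 and 798 CPM in MetR_RT and at 369, 395 and 501 CPM in MetR_CE (-0.77 ± 0.13, adjusted p = 5.92e-05), without overlap and near the Ctrl_RT median of 361 CPM. In the list of NRF2 and glutathione conjugation, which also holds Gclc, 0 of 26 genes were upregulated and 4 downregulated, with a median log2 fold change of -0.18. Gstm1, a glutathione S-transferase, was at 1859, 2161 and 2600 CPM in MetR_RT and at 1190, 1343 and 1652 CPM in MetR_CE. Its log2 fold change was -0.62 ± 0.14 (adjusted p = 0.0018), and the MetR_CE levels remained above the Ctrl_RT range of 289 to 547 CPM. Gstm3 (-0.87) and Gstp1 (-0.66) were the others. Gstm1 fell under the fold threshold without MetR_RT replicate 4 (-0.56) and Gstp1 without MetR_CE replicate 1 (-0.57). Members of this family are close in sequence, so that reads may be split between them.

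Of 33 genes of the integrated stress response, 0 were upregulated and 5 downregulated, and the median log2 fold change was -0.43. Phgdh, which opens serine synthesis (chr3:98313170-98339990), was at 4.66, 12.3 and 20.2 CPM in MetR_RT and at 1.64, 2.71 and 6.01 CPM in MetR_CE, beside medians of 0.387 CPM in Ctrl_RT and 0.280 CPM in Ctrl_CE. The ranges overlapped, and the log2 fold change was -1.93 ± 0.28 (adjusted p = 1.42e-05). Gdf15, a stress hormone, went from 4.24, 18.4 and 41.5 to 2.39, 3.76 and 8.999 CPM (-2.09 ± 0.37, adjusted p = 0.000125). Nupr1 (-0.99), Psph (-0.67) and Ppp1r15a (-0.69) were the further downregulated genes. Other known targets did not pass: Psat1 had -0.34 ± 0.23 (adjusted p = 0.348) and Pck2 -0.22 ± 0.22 (adjusted p = 0.566). Fgf21 was at 3.57, 30.6 and 130 CPM in MetR_RT and at 3.36, 10.6 and 61.1 CPM in MetR_CE, with a log2 fold change of -1.15 ± 0.63 (adjusted p = 0.234). It was -0.53 without MetR_RT replicate 6 and -1.78 without MetR_CE replicate 1 (adjusted p = 0.647 and 0.0599). Its spread within each group was wider than the difference between them.

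Among 33 hormones secreted by the liver and hormone receptors, 4 were upregulated and 4 downregulated. Lepr, the leptin receptor, was at 7.48, 13.2 and 25.6 CPM in MetR_RT and at 26.6, 56.6 and 74.4 CPM in MetR_CE, without overlap (1.81 ± 0.42, adjusted p = 0.00229). Dio1, the deiodinase that activates thyroid hormone, went from 32.8, 61.4 and 141 to 178, 207 and 230 CPM (1.41 ± 0.21, adjusted p = 1.59e-05), and the Ctrl_RT median was 213 CPM. Hgf, hepatocyte growth factor, had a log2 fold change of 1.201 ± 0.16 (adjusted p = 3.5e-06), and Angptl4 is given above. Downregulated were Gdf15, Fetub (-0.69), Enho (-1.39), which encodes adropin, and Fst (-0.83), which encodes follistatin and lost its call in 7 of 14 fits without 1 library.

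Of 26 genes of xenobiotic metabolism, 4 were upregulated and 1 downregulated. Alas1, the rate-limiting enzyme of hepatic heme synthesis, was at 54.3, 122 and 252 CPM in MetR_RT and at 314, 362 and 548 CPM in MetR_CE, without overlap (1.69 ± 0.34, adjusted p = 0.000659). Por, the reductase that feeds electrons to all microsomal P450 enzymes, went from 272, 327 and 390 to 498, 659 and 692 CPM (0.92 ± 0.17, adjusted p = 0.00029), and Fmo2 had a log2 fold change of 0.95. Cyp2c39 (0.94) and Cyp2c55 (-0.88) lost their calls in 11 and 12 of 14 fits without 1 library. In the list of iron and heme, with 3 of 22 upregulated and 1 downregulated, the transferrin receptor gene Tfrc had 0.89 ± 0.21 (adjusted p = 0.00247). Of 23 bile acid genes, 2 were downregulated and 0 upregulated: Hsd3b7 (-0.91 ± 0.17, adjusted p = 0.000216), an enzyme of bile acid synthesis, and Nr0b2 (-0.83), the bile acid-induced repressor SHP, which lost its call in 5 of 14 fits.

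Of 31 acute phase genes, 5 were downregulated and 0 upregulated, the median log2 fold change was -0.58, and 25 of 31 values were negative. With apeglm shrinkage 1 of the 31 was called, and 13 were when only MetR_RT and MetR_CE were fitted. The fibrinogen chain gene Fgg was at 2902, 4002 and 4437 CPM in MetR_RT and at 1920, 2243 and 2389 CPM in MetR_CE, without overlap (-0.79 ± 0.20, adjusted p = 0.00637), and Fgb had -0.72 and Fga -0.59. Fga passed in only 2 of 14 fits without 1 library. The call of Saa1 rested on 1 library: MetR_RT replicate 5 held 385 CPM and the other 6 held 9.08 to 23.5, and without it the log2 fold change went from -3.27 to -1.09 (adjusted p = 0.375). Saa2 had -3.02 and, without that library, -0.99 (adjusted p = 0.534), and its call was also lost without any 1 of MetR_CE replicates 1, 2, 3, 5, 6 and 7. The near-identical Saa genes may share reads. Orm1 (-0.41), Orm2 (-0.93) and Lcn2 (-2.30) did not pass. Lcn2 had -1.50 without MetR_RT replicate 5 (adjusted p = 0.244) and passed without MetR_RT replicate 1 or 7 (adjusted p = 0.0463 and 0.0448). Orm1 had -0.23 without MetR_RT replicate 5. The median of Saa1 was 2000 CPM in Ctrl_RT and 14.1 CPM in MetR_RT. Of 26 complement genes, C8a (-0.89) and C9 (-0.71), parts of the membrane attack complex, were downregulated and 0 were upregulated.

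Of 14 antigen presentation genes, 3 were downregulated and 0 upregulated, and 9 were lower at an adjusted p under 0.05 at any fold, against 9.58% of all genes. The 3 belong to major histocompatibility complex class II: H2-Eb1 (-0.72), H2-Ab1 (-0.68) and the invariant chain Cd74 (-0.59). All 3 lost their calls without MetR_RT replicate 2 (-0.58, -0.57 and -0.49), H2-Ab1 also without MetR_RT replicate 1, and Cd74 in 7 of 14 fits in all. MetR_RT replicates 1 and 2 also carried the highest summed lymphocyte markers, up to 75.97 CPM, against a group median of 8.12 CPM and 5.47 to 10.6 CPM in MetR_CE. Without both libraries 0 of the 14 genes were downregulated. The immunoglobulin genes Ighm, Igkc and Jchain, with log2 fold changes of -2.35, -2.59 and -2.60, moved with the same 2 libraries. Without MetR_RT replicate 2 they had -1.23, -1.48 and -1.60, and only Jchain kept its call. Without both libraries Jchain lost its call too, and Ighm lost its call in 8 of 14 fits without 1 library. The part of lymphocytes in these results was not tested.

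Core clock genes changed in both directions. Of 20 clock genes, 5 were upregulated and 3 downregulated. The repressor Per2 (chr1:91415982-91459324) was at 11.98, 18.9 and 37.4 CPM in MetR_RT and at 35.5, 50.2 and 69.4 CPM in MetR_CE (1.16 ± 0.26, adjusted p = 0.00194). Per1 (1.14), Per3 (1.29), Ciart (1.66) and the deubiquitinase gene Usp2 (2.06) were also upregulated. Of the activators, Arntl went from 5.92, 10.9 and 27.4 to 1.42, 4.44 and 6.02 CPM (-1.85 ± 0.33, adjusted p = 0.000133), and Npas2, the partner that can replace CLOCK, from 0.962, 1.85 and 13.1 to 0.238, 0.515 and 1.34 CPM (-2.84 ± 0.57, adjusted p = 0.000559). The repressor Nfil3 (-0.97) lost its call in 7 of 14 fits without 1 library. None of the 8 genes parted the groups without overlap. In MetR_RT, replicate 2 held the highest Usp2 (32.6 CPM, against 1.86 to 8.73 in the others) and Per1 (51.9 CPM, against 7.46 to 22.0). All mice were sacrificed within the same morning window. The time of each mouse within it was not given, and the part of that time in the clock values was not tested.

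Among immediate early genes, which respond within minutes to growth factors and stress, 6 of 22 were downregulated and 0 upregulated, with a median log2 fold change of -0.57. Egr1 was at 10.7, 31.8 and 72.2 CPM in MetR_RT and at 1.54, 2.45 and 8.03 CPM in MetR_CE, without overlap (-3.49 ± 0.73, adjusted p = 0.000879). Nr4a1 went from 1.04, 6.34 and 32.2 to 1.001, 1.52 and 2.69 CPM (-2.69 ± 0.59, adjusted p = 0.00143), with overlap. Ier2 (-0.81) did not overlap. Jun (-0.94), Junb (-0.93) and Fos (-2.17) completed the list, with Junb losing its call in 4 of 14 fits and Fos without MetR_RT replicate 2 or 4 (-1.81 and -1.84). Among 20 glucocorticoid-responsive genes, Angptl4, Errfi1 (1.06) and Per1 were upregulated and Dusp1 (-1.45) downregulated.

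Of 83 cytosolic ribosomal protein genes, edgeR called 0 as DEGs, as did DESeq2, yet 76 were lower at an unadjusted p under 0.05, against 29.4% of all genes in either direction, and 74 at an adjusted p under 0.05. Their median log2 fold change was -0.34, and for 54 the groups did not overlap, against 3.69% of all genes in this direction. Of 78 mitochondrial ribosomal protein genes 0 were DEGs by either tool, 46 were lower at an unadjusted and 31 at an adjusted p under 0.05, with a median of -0.15. Of 77 nuclear genes of the respiratory chain 0 were DEGs by either tool, and 19 were lower and 4 higher at an unadjusted p under 0.05. Of 13 mitochondrial genes 1 was upregulated, mt-Nd5 (0.72). Mitochondrial transcripts took 3.20% to 4.38% of counts in MetR_RT and 4.33% to 4.72% in MetR_CE.

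**Figure D3:**
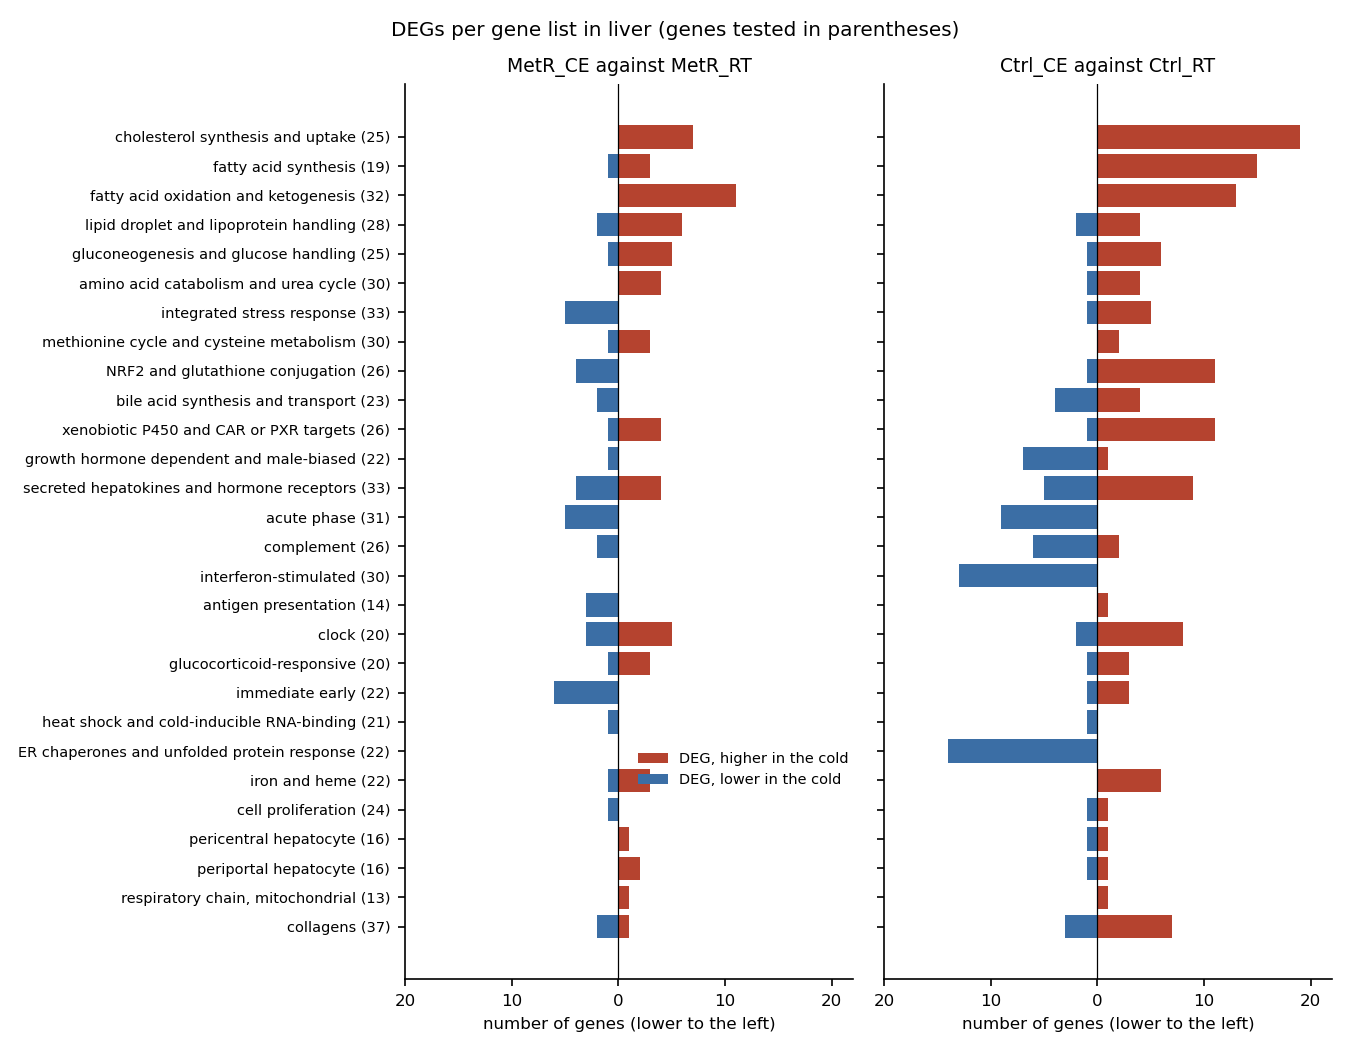
Number of upregulated and downregulated DEGs in each gene list of fewer than 40 tested genes, for MetR_CE against MetR_RT on the left and Ctrl_CE against Ctrl_RT on the right. In the left panel fatty acid oxidation has the longest bar (11 upregulated) and ER chaperones and interferon-stimulated genes have none, where the right panel shows 14 and 13 downregulated.

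The remaining lists held few DEGs. Of 21 heat shock and cold-inducible genes 1 was downregulated, Cirbp (-0.67), which encodes a cold-inducible RNA-binding protein. Its level was 28.8, 31.6 and 51.6 CPM in MetR_RT and 17.0, 22.5 and 28.5 CPM in MetR_CE, and it fell under the fold threshold without MetR_RT replicate 1 (-0.56). Of 22 growth hormone dependent and male-biased genes 1 was downregulated, Hsd3b5 (-1.27 ± 0.32, adjusted p = 0.00492). Of 24 proliferation genes 1 was downregulated and 0 were upregulated. Among zonated hepatocyte genes, 1 of 16 pericentral genes (Oat) and 2 of 16 periportal genes (Pck1 and Etnppl, 0.84) were upregulated and 0 downregulated. Of 37 collagen genes 1 was upregulated and 2 downregulated.

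Markers of liver endothelial cells were higher in the cold. Of 14 tested, 8 were upregulated and 0 downregulated, and 12 did not overlap between the groups, against 3.64% of all genes in this direction. Their summed level was 393 to 501 CPM in MetR_RT and 674 to 747 CPM in MetR_CE. The scavenger receptor gene Stab1 (0.74, adjusted p = 2.4e-07), the lymphatic growth factor receptor gene Flt4 (0.95, adjusted p = 4.6e-07) and the VEGF receptor gene Kdr (0.73, adjusted p = 1.9e-06) were among the 8. In bulk tissue, more cells of a type and more RNA per cell cannot be told apart, nor can fewer cells and less RNA. Of 12 Kupffer cell markers 1 was upregulated (Csf1r, 0.66) and 0 downregulated, with sums of 199 to 375 and 333 to 399 CPM. Of 11 stellate markers 0 were DEGs in edgeR or DESeq2 and 2 were higher at an unadjusted p under 0.05. Their sums were 329 to 458 and 369 to 497 CPM. Hemoglobin genes led the erythroid list, with 4 of 8 downregulated, 2 without MetR_RT replicates 1 and 2, and sums of 70.6 to 136 and 45.2 to 99.0 CPM. Of 12 lymphocyte markers 1 was downregulated (Ighm), of 8 cholangiocyte markers 1 (Sox9, -0.79), of 10 hepatocyte markers 1 (Apoa1), and of 6 adipocyte markers 1 was upregulated (Cidec). The neutrophil, mesothelial, pancreatic acinar and ciliated lists, of 7, 6, 2 and 5 genes, held 0 DEGs in edgeR. At an unadjusted p under 0.05 they held 0, 1, 1 and 1 genes, and DESeq2 called 1 mesothelial gene. On the control diet, cold upregulated 14 of the 14 endothelial, 9 of the 11 stellate and 8 of the 12 Kupffer cell markers, against 7.28% of all genes, and downregulated 0. Without Ctrl_CE replicate 4 the counts were 13, 9 and 6. Kupffer cell sums spread widely in Ctrl_CE, from 370.8 to 1520 CPM, beside 409.5 to 578.4 CPM in Ctrl_RT. The test of the difference between the diets called 1 endothelial, 1 stellate and 0 Kupffer cell markers, more negative on MetR. DESeq2 without shrinkage called 1, 5 and 0. At an unadjusted p under 0.05 in edgeR there were 10, 7 and 3, against 16.1% of all genes. In each of these lists 0 markers had a positive interaction value. The part of shifts between cell types in the results above was not tested.

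**Figure D4:**
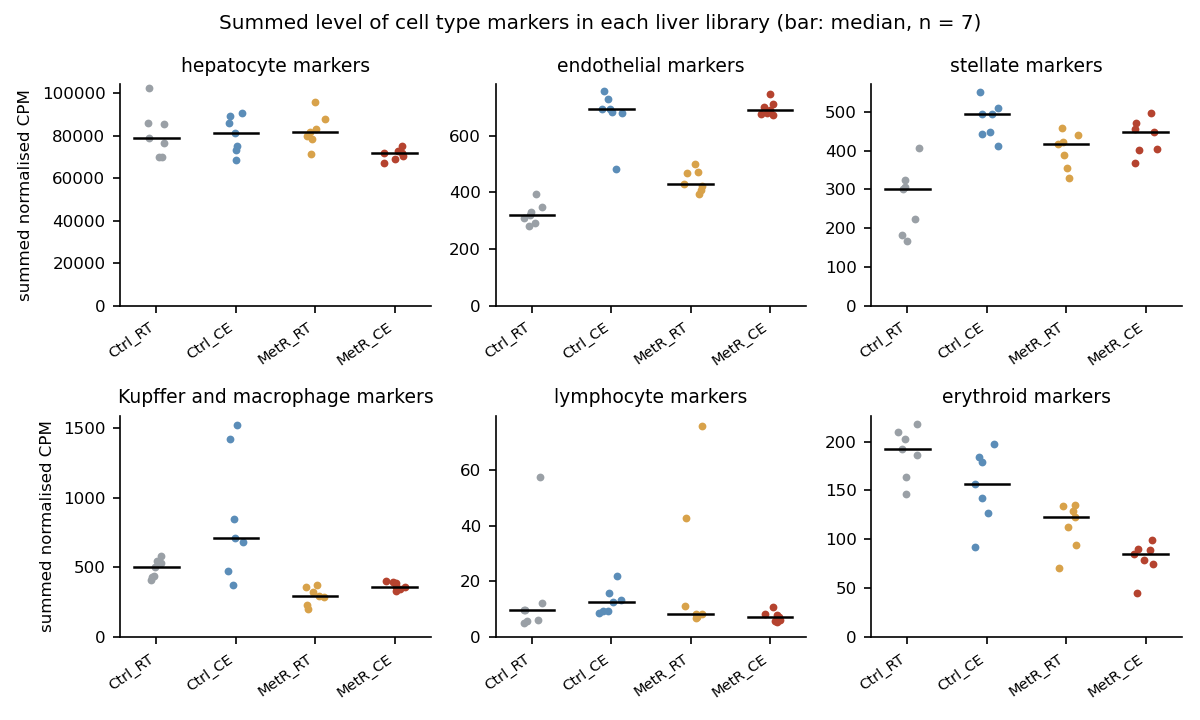
Summed normalised CPM of the markers of 6 cell types in each liver library, with a bar at the median of 7. Endothelial sums of MetR_CE (674 to 747) lie above all of MetR_RT (393 to 501), whereas 2 MetR_RT libraries stand out in lymphocyte markers.

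The same cold exposure on the control diet changed more genes, 1612 upward (7.28%) and 1027 downward (4.64%), and the cold contrasts of the diets share no library. Of the DEGs under methionine restriction, 559 were also DEGs in the same direction on the control diet, which is 48.7% of the former and 21.2% of the latter, and 8 changed in opposite directions. Upregulated genes were shared more often (364 of 608) than downregulated genes (195 of 540), which was not tested. Of the 1148 DEGs, 1022 had the same sign on the control diet (89.02%), against 68.4% of all genes. Over the 12514 genes with at least 1 CPM the log2 fold changes had a Pearson r of 0.64, a description across genes, which are not independent. Genes called on 1 diet alone are not thereby shown to differ between diets. For example, Pck1 had 1.29 on MetR and 0.37 on the control diet, with an interaction of 0.92 (adjusted p = 0.20), and Phgdh had -1.93 and -0.44, with an interaction of -1.50 (adjusted p = 0.28).

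**Figure D5:**
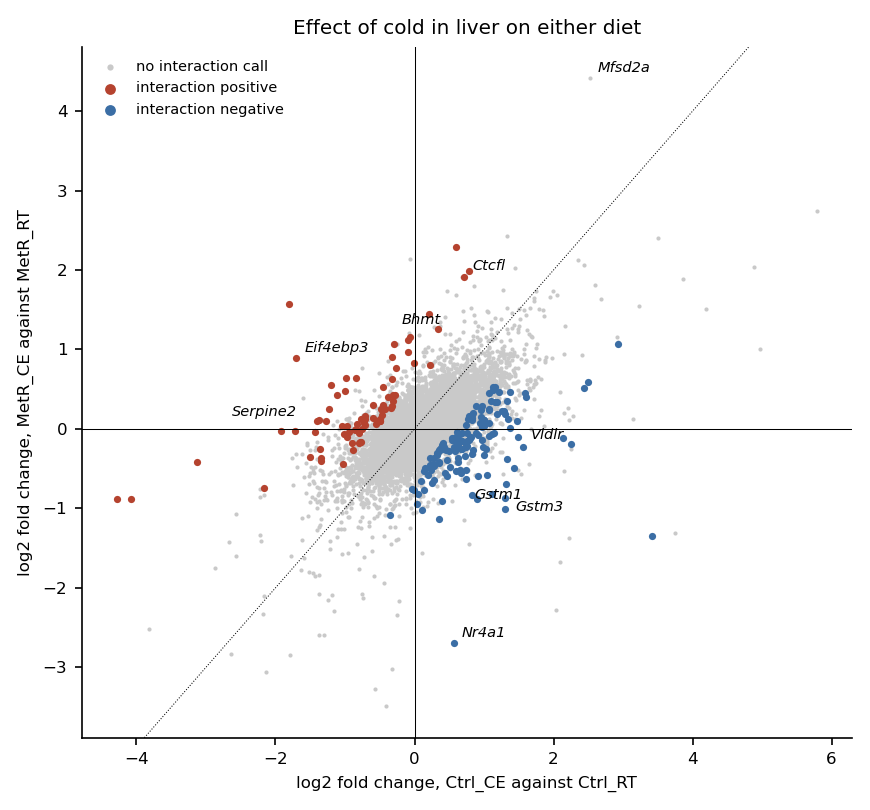
Log2 fold change in the cold on the MetR diet against that on the control diet, for 12514 genes of at least 1 CPM, with interaction DEGs in colour and a dotted line of equal change. Over the genes plotted Pearson r is 0.64. Gstm1 and Gstm3 lie below 0 on the vertical axis and above 0 on the horizontal axis, and Eif4ebp3 lies the opposite way.

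The difference between the cold effects was tested as the interaction of diet and temperature, which called 83 genes as more positive on MetR (0.375%) and 151 as more negative (0.682%), 1.06% in all. Of the negative genes, 100 were upregulated by cold on the control diet and 22 were downregulated on MetR. Of the positive genes, 49 were downregulated on the control diet and 19 upregulated on MetR. Without Ctrl_CE replicate 4, which correlated least with its group (0.9618), the counts were 151 and 250, and glmTreat called 0, beside 3561 genes (16.1%) at an unadjusted p under 0.05.

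Of the 26 genes of the NRF2 list, 11 had a negative interaction and 0 a positive one. On the control diet 11 of them were upregulated by cold and 1 downregulated. Gstm1 had a log2 fold change of 0.74 on the control diet and -0.62 on MetR (interaction -1.36, adjusted p = 0.001), and Gstm3 of 1.29 and -0.87 (interaction -2.17, adjusted p = 0.0016). In levels, the median of Gstm1 was 409 CPM in Ctrl_RT and rose to 647 CPM with cold, and it was 2161 CPM in MetR_RT and fell to 1343 CPM with cold. Gclc (-0.90, adjusted p = 0.0091) and Gstm4 (-0.99, adjusted p = 0.00079) followed. Vldlr, the receptor of very low-density lipoprotein, was at medians of 0.896 and 3.03 CPM on the control diet and 10.5 and 8.48 CPM on MetR (interaction -1.79, adjusted p = 0.0017). Serpina6, which encodes the corticosteroid carrier of plasma, had an interaction of -1.28 (adjusted p = 0.0022).

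Of 22 chaperones of the endoplasmic reticulum and genes of the unfolded protein response, 0 were DEGs under methionine restriction in edgeR or DESeq2, with 3 at an unadjusted p under 0.05, whereas 14 were downregulated on the control diet, and 10 had a positive interaction. Calr, calreticulin, had a log2 fold change of 0.07 on MetR and -0.83 on the control diet, and Pdia6, a disulfide isomerase, of -0.06 and -1.01, both with interaction calls (0.89 and 0.94). Of 30 interferon-stimulated genes, 0 were DEGs on MetR in either tool, with 10 at an unadjusted p under 0.05, 13 were downregulated on the control diet and 3 had a positive interaction, 7 without Ctrl_CE replicate 4. Stat2 was one of them (0.65, adjusted p = 0.0091). Calr and Pdia6, the marker genes Stab1, Flt4, Kdr, Csf1r and Sox9 above, and Me1 and Elovl6 below were named after their values were seen.

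Of 19 fatty acid synthesis genes 15 were upregulated by cold on the control diet, and 3 had a negative interaction (8 without Ctrl_CE replicate 4 and 8 in DESeq2 without shrinkage), among them Me1 (0.59 on MetR and 2.50 on the control diet) and Elovl6 (0.52 and 2.43). Of 25 cholesterol genes 19 were upregulated on the control diet, and 1 had a negative interaction (3 without Ctrl_CE replicate 4 and 3 in DESeq2 without shrinkage). Of 32 fatty acid oxidation genes, 13 were upregulated on the control diet and 11 on MetR. EdgeR called 0 of the 32 interactions, beside 6 at an unadjusted p under 0.05, and DESeq2 without shrinkage called 2 in each direction. Bhmt was the reverse: it had a log2 fold change of -0.07 on the control diet and 1.16 on MetR (interaction 1.23, adjusted p = 0.0094). Hopx (interaction 0.91), Serpine2 (1.48), Dtx3l (0.59), Errfi1 (1.36) and Eif4ebp3 (2.60), a repressor of translation initiation, were also positive, and Nr4a1 (-3.25), Fst (-1.66), Hamp2 (-1.94) and Cyp2c55 (-1.78) negative. On MetR, Eif4ebp3 (0.89) passed in only 2 of 14 fits without 1 library and Hamp2 (-0.82) in 6.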

How the data were processed

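PolyA-selected liver RNA (NEBNext Ultra II kit) was sequenced as paired-end reads. The table deposited by the authors holds raw counts, as whole numbers, of 56884 Ensembl genes in 28 liver libraries. The submitters' processing notes name mm10, STAR 2.7.9a, featureCounts 2.0.3 and Salmon 1.9.0, so that the tool behind the counts is not certain. The study's methods name GENCODE vM25, but only 35 of the gene identifiers carry the versions of the reference table used here, so that 51948 (91.3%) were matched to symbols without version. Coordinates are those of that table's annotation (GENCODE vM21, GRCm38, the same assembly as mm10). Of the tested genes 908 had no symbol, among them 55 DEGs. The adipose tables were not used here, and 0 columns of the liver table were left unused.

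Genes with at least 10 counts in total were kept, and edgeR 4.0.16 (R 4.3.3) fitted diet, temperature and their interaction over all 28 libraries after TMM normalization. Contrasts were tested by quasi-likelihood F tests with Benjamini-Hochberg adjustment over 22143 genes. Errors are SE of the log2 fold change, and adjusted p-values are from edgeR unless stated. Each library is 1 mouse. Replicate numbers did not pair libraries: same-numbered libraries correlated at -0.198 to 0.10 in their deviations from the group means. No pair of libraries within a group was identical. Alternatives were DESeq2 1.42.0 with or without apeglm 1.24.0, glmTreat, RLE factors, filterByExpr, no filter, the compared groups alone, a replicate block and single libraries left out. The script was tested on simulated data. Depth limits genes of few counts, and counts and CPM cannot show changes in total RNA per cell.

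The comparison, the 31 pathway lists and the 12 marker lists were chosen with earlier results of these data known. Named genes have a mean of at least 1 CPM and are the 12 largest changes and 8 smallest p each way, up to 6 members of smallest p and all DEGs per pathway list, the 8 smallest p of each sign of the interaction, and the genes Fgf21, Gdf15, Pck2, Psat1, Lepr, Saa1, Saa2, Orm1, Orm2 and Lcn2. A subset of 123 of the resulting 242 genes entered the alternatives. Some named genes are not reported here.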

Additional observations from a re-analysis of the deposited data

Results flagged for a closer look

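Of 270 groups of 7 values tested, 25 (9.26%) held 1 library whose gap to its nearest neighbour was above Dixon's 95% critical value. For independent, normally distributed values chance gives about 1 in 20 groups. The groups here share libraries and their CPM were not tested for normality, so that no excess over chance can be read from this share. Values are in normalised CPM. In MetR_RT the metabolic genes concerned were Apoa4 in replicate 3 (269, others 103 to 138), Ppp1r3g in replicate 4 (4.76, others 0.573 to 1.25), Nupr1 in replicate 1 (14.8, others 9.53 to 10.7), Fmo2 in replicate 1 (15.4, others 9.08 to 10.3) and Enho in replicate 2 (27.0, others 5.69 to 13.4). The inflammatory genes were Saa1 in replicate 5 (384, others 9.08 to 23.5), Saa2 in replicate 5 (143, others 2.74 to 15.4) and Lcn2 in replicate 5 (99.2, others 3.02 to 34.9), all in the same library. Replicate 2 carried 6 of the values, which besides Enho were Usp2 in replicate 2 (32.6, others 1.86 to 8.73), Per1 in replicate 2 (51.9, others 7.46 to 22.0), Jchain in replicate 2 (10.1, others 0.573 to 4.12), adipocyte marker sum in replicate 2 (22.1, others 8.34 to 12.5) and mesothelial marker sum in replicate 2 (9.99, others 1.41 to 4.70).

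In MetR_CE the values for metabolic genes and hormones were Pfkfb3 in replicate 5 (32.9, others 17.9 to 23.0), Oat in replicate 7 (1290, others 1018 to 1127), Fgf21 in replicate 1 (61.1, others 3.36 to 27.9), Nr0b2 in replicate 1 (53.0, others 14.5 to 27.6) and Cyp2c39 in replicate 2 (1.62, others 2.69 to 3.49). The others were Saa2 in replicate 4 (7.21, others 1.16 to 3.69), C8a in replicate 1 (137, others 209 to 264), Npas2 in replicate 1 (1.34, others 0.238 to 0.691), Nr4a1 in replicate 3 (2.69, others 1.001 to 1.67), Arf5 in replicate 7 (78.2, others 61.7 to 67.7), Ighm in replicate 4 (5.93, others 1.82 to 3.52) and adipocyte marker sum in replicate 4 (19.6, others 11.0 to 12.9). Replicate 1 held 4 of these 12 values.

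Among the 123 named genes that entered the alternatives, the effect of cold differed between the diets for 19. Part of the named genes were picked by their small p in this same interaction test. The count therefore cannot be set against the 1.06% called over all genes. These passed the interaction test of edgeR at an adjusted p under 0.05 and a difference of at least 1.5-fold. The log2 fold change was more positive under methionine restriction for Bhmt (by 1.23), Hopx (0.91), Eif4ebp3 (2.60), Serpine2 (1.48), Stat2 (0.65), Dtx3l (0.59), Errfi1 (1.36) and the overlapping pair Ctcfl (1.21) and Ctcflos (1.21). It was more negative for Gclc (-0.90), Gstm1 (-1.36), Gstm3 (-2.17), Gstm4 (-0.99), Cyp2c55 (-1.78), Fst (-1.66), Nr4a1 (-3.25), Hamp2 (-1.94), Vldlr (-1.79) and Serpina6 (-1.28). Dtx3l kept its call in 5 of 8 other settings, and each of the rest in 7.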

How the results depend on the processing

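Against 608 upregulated and 540 downregulated genes, apeglm shrinkage gave 783 DEGs in all, of which 318 were downregulated. With glmTreat, which tests against the fold threshold, the counts were 42 and 26 (on the control diet 314 and 151). Without any 1 library the counts were 528 to 655 and 451 to 517. The interaction counts of 83 positive and 151 negative became 145 and 266 with DESeq2 without shrinkage and 0 and 0 with glmTreat. With filterByExpr 304 genes were called, 129 of them positive. Without Ctrl_CE replicate 4, a choice made after seeing the data, the counts were 151 and 250. The cause was not tested. With a replicate block there were 1087 DEGs, of which 1024 were shared in direction with the unblocked fit, and 175 interaction DEGs; 1 of 7 same-number correlations was above 0.1 and 1 of 7 libraries correlated best with its own number, so that the libraries share only a number. Of 111 named DEGs, 81 stayed DEGs without any 1 of 14 libraries, 19 did so in every setting, and 306 of 2553 comparisons lost the call at the same direction. Pck2, not a DEG, ranged from -0.35 to 0.0032 without 1 library and changed sign without MetR_RT replicate 3. Leaving out MetR_RT replicates 1 and 2, also chosen after seeing the data, gave 1031 DEGs. Depth limits the genes of few counts.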
